A study of Mus musculus with 4 samples.

Results

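The genes described here are 10 components of the cyclic AMP (cAMP) pathway that holds the mouse oocyte in meiotic prophase. They were taken by symbol, and all 10 were found among the 55453 genes of the count table. They are the receptor genes Gpr3 and Gpr12, the G protein gene Gnas, the adenylyl cyclase genes Adcy3 and Adcy9, the phosphodiesterase gene Pde3a, and the protein kinase A (PKA) genes Prkaca, Prkacb, Prkar1a and Prkar2b. The study sequenced messenger RNA of oocytes taken from the ovary at the germinal vesicle stage, when the nucleus is still intact and meiosis has not resumed. It compared 2 control libraries, labelled wild type, with 2 libraries labelled Parp12 knockdown, to ask how reducing Parp12, a gene of the ADP-ribosyltransferase family, alters the transcriptome. Both groups carry the same treatment label, direct isolation from the ovary. The sources used here do not give the strain, the age of the mice, the way the knockdown was made or whether the controls went through a mock procedure.

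In an arrested oocyte, receptors that signal without a ligand keep the stimulatory G protein active, and adenylyl cyclases turn this into a steady supply of cAMP. The cAMP binds the regulatory subunits of PKA and frees the catalytic subunits, which hold CDK1 inactive through the kinase WEE2 and the phosphatase CDC25B. Cyclic GMP from the surrounding follicle cells enters through gap junctions and blocks the phosphodiesterase PDE3A. When cyclic GMP drops, PDE3A degrades cAMP and meiosis resumes.

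The libraries held between 35805122 and 45230773 counts, and with 3 counts as the limit that a count of 0 allows, the floor lay between 0.0663 and 0.0838 CPM (counts per 1000000 of a library's total). Parp12 had 14279 and 9419 counts in control oocytes and 32 and 86 in knockdown oocytes, as the labels say (adjusted p of 1.27e-07 by edgeR, 0.280 by limma-voom). The 12 oocyte markers summed to between 24915 and 27008 CPM. The 17 markers of granulosa and cumulus cells, which surround the oocyte, summed to 51.9 and 52.2 CPM in control oocytes and to 44.2 and 45.5 CPM in knockdown oocytes. Of these 17, 7 had no count in any library, among them Amh, Foxl2 and Nppc, and most of the sum came from Cyp19a1 and Kitl. The theca and stroma list summed to between 3.29 and 6.45 CPM in control oocytes and between 2.58 and 3.38 CPM in knockdown oocytes, with 4 of its 13 genes at 0. The blood and endothelium list summed to 122.1 and 127.3 CPM in control oocytes and to 118.4 and 120.2 CPM in knockdown oocytes, nearly all from Pecam1 and Tek, while Cdh5 had no count. Behind these sums, single markers with few counts went both ways. Cyp11a1 had 70 and 70 counts in control oocytes and 11 and 5 in knockdown oocytes, and Star 40 and 135 against 10 and 20. Pdgfra had 0 and 19 counts in control oocytes and 52 and 68 in knockdown oocytes, and Cd68 0 and 44 against 130 and 74. For each of these genes edgeR gave an adjusted p of 0.835. The part of these differences in the results was not tested. In such bulk libraries fewer cells of a type and less RNA per cell cannot be told apart.

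No gene of the 10 passed edgeR's quasi-likelihood test at an adjusted p of 0.05, and none was called by DESeq2 or limma-voom. Over all 15868 tested genes edgeR called 0.0063%, which was Parp12 alone, and DESeq2 called 1.86% of the genes to which it gave an adjusted p. By limma-voom 0 of all tested genes were called, not even Parp12, so its lack of calls says nothing about the 10. All 10 genes passed the filter on low counts. At an unadjusted p under 0.05 edgeR listed 1 of the 10, Prkar2b, against 5.51% of all tested genes. DESeq2 listed 2 at that level, Prkar2b and Prkacb, against 10.2% of the genes it gave a p, and limma-voom listed 1, Prkar2b, against 4.71%. In CPM the groups did not overlap for 3 of the 10 genes (Prkacb and Prkar1a higher, Prkar2b lower), against 34.9% of all tested genes, so the share among the 10 was close to the background. The median log2 fold change (knockdown against control) was 0.02 over the 10 genes and 0.00 over all tested genes, with 5 of the 10 above 0 and 5 below. The 95% interval lay within a 2-fold change in either direction for 7 of the 10 genes, against 46.7% of all tested genes. The other 3 were Gpr12, Adcy3 and Adcy9. Intervals narrow as counts rise, and the 46.7% covers genes of all levels, so this comparison does not set the 10 genes apart as steadier. Leaving out single libraries turned the sign of the estimate for 7 of the 10 genes. The other 3 are those whose groups did not overlap, for which leaving out a library can hardly turn the sign, so this is no further support for their direction.

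**Figure D1:**
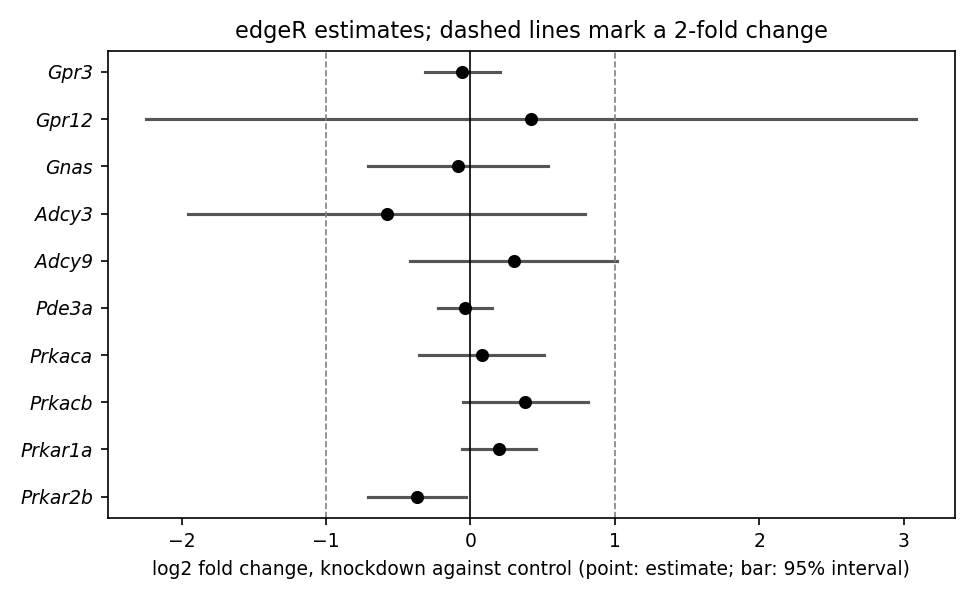
Points are the log2 fold changes of the 10 genes in knockdown against control oocytes estimated by edgeR from 2 libraries a group, bars are 95% intervals, and dashed lines mark a 2-fold change. The bar of Prkar2b is the only bar that does not cross 0, and the bars of Gpr12 and Adcy3 are the widest.

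The receptors stood at opposite ends of the order of levels. GPR3 is the constitutively active receptor that keeps cAMP high in the mouse oocyte, and GPR12 is its close relative, for which a like role has been described in rat oocytes. Gpr3 lies on the minus strand of chromosome 4 of mm10, from 133209340 to 133212536. Gpr12 lies on the minus strand of chromosome 5, from 146582398 to 146585239. Because their levels differ so widely, the 250 bases before each annotated start are shown from RefSeq (GRCm38.p6), with capitals for the half-site of the cAMP response element (TGACG on either strand) and for the E-box (CANNTG), the element bound by basic helix-loop-helix factors. The Gpr3 stretch is chr4:133212537-133212786 and the Gpr12 stretch is chr5:146585240-146585489, both read 5′ to 3′ on the minus strand.
Gpr3: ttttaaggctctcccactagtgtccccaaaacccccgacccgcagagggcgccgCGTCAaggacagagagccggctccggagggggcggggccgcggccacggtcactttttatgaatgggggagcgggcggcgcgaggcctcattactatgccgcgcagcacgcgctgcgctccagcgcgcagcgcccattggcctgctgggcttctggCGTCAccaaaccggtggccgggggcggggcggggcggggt
Gpr12: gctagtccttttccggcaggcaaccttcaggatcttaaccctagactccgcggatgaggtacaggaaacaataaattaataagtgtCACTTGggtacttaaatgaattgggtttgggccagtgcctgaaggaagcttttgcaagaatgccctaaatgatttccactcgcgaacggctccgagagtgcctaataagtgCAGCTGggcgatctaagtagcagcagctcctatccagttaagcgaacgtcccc

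The Gpr3 stretch holds 2 half-sites and 0 E-boxes, and the Gpr12 stretch holds 0 half-sites and 2 E-boxes. A further start that RefSeq lists for Gpr12 is preceded by 0 half-sites and 3 E-boxes. Over all 32851 such stretches in the table, 17.8% hold at least 1 half-site and 66.2% at least 1 E-box. G and C make up 70.8% of the Gpr3 stretch and 48.8% of the Gpr12 stretch. The full element, TGACGTCA, is in 1.55% of all stretches and, among the 9 of the 10 genes that the table covers, only before 1 of the 6 listed starts of Prkar1a. The full element contains the half-site on both strands. These are matches of letters, and binding was not measured.

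Gpr3 had 6320 and 5129 counts in control oocytes and 5770 and 4276 in knockdown oocytes. In counts per kilobase of exon per 1000000 (RPKM), these were levels of 51.1 and 45.8 in control oocytes and 49.6 and 43.7 in knockdown oocytes. The groups overlapped, and Gpr3 was the most abundant of the 10 genes per length, at rank 1168 among all genes in the table. Its estimated log2 change was -0.06 (SE 0.12, 95% interval -0.32 to 0.20), and edgeR gave an adjusted p of 0.969. Of its exonic bases, 7.46% overlap Cd164l2 on the other strand, a gene with 10706 to 14532 counts, and the sources used here do not say whether counting used strand.

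Gpr12 had 59 and 9 counts in control oocytes and 19 and 64 in knockdown oocytes. In RPKM the control libraries stood at 0.519 and 0.0875 and the knockdown libraries at 0.178 and 0.712, the lowest mean level of the 10 genes. The libraries within a group differed more than the groups did: the larger control value was 5.93 times the smaller and the larger knockdown value 4.01 times the smaller. The 95% interval of its log2 fold change, -2.25 to 3.09, therefore places no useful limit on a change. In RPKM, Gpr3 exceeded Gpr12 by 61.4 to 523.6 times within a library. Gpr6, the remaining close relative of both receptors, had no count in any library.

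Gnas encodes the alpha subunit of the stimulatory G protein, which passes the signal of the receptor to adenylyl cyclase. It lies on the plus strand of chromosome 2, from 174284320 to 174346744. Its CPM values were 23.7 and 17.6 in control oocytes and 17.6 and 22.01 in knockdown oocytes. The groups overlapped, with a log2 change of -0.09 (SE 0.29, 95% interval -0.71 to 0.54). The locus is imprinted and gives several alternative transcripts, and the table adds them over 11387 exonic bases, so the level of the transcript for the G protein itself cannot be separated. Its mean level was 1.78 ± 0.273 RPKM (SD, n = 4). On the other strand, Gm20721, with no count in any library, overlaps 12.9% of the Gnas exonic bases. Nespas, with 0 to 44 counts in a library, overlaps 8.68% of them.

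Adcy3 and Adcy9 encode membrane-bound adenylyl cyclases, the enzymes that make cAMP, and ADCY3 is the form known for its part in arrest in mouse oocytes. Adcy9 is on chromosome 16, from 4287529 to 4420498, and Adcy3 on chromosome 12, from 4133103 to 4213525. Adcy9 had 534 and 881 counts in control oocytes and 979 and 613 in knockdown oocytes. Adcy3 had 167 and 369 counts in control oocytes and 256 and 71 in knockdown oocytes. For both genes the groups overlapped in CPM. The estimated log2 change was 0.30 (SE 0.33, 95% interval -0.42 to 1.02) for Adcy9 and -0.58 (SE 0.64, 95% interval -1.96 to 0.80) for Adcy3. The replicates of Adcy3 differed 2.44-fold in control oocytes and 3.03-fold in knockdown oocytes. Of its exonic bases, 22.1% overlap Cenpo on the other strand, a gene with 7701 to 9005 counts in a library, so Adcy3 is uncertain. Within a library Adcy9 exceeded Adcy3 per length by 3.84 and 2.87 times in control oocytes and by 4.60 and 10.4 times in knockdown oocytes, and an exact two-sided permutation test over the 6 arrangements of the 4 libraries gave 0.333, the smallest p this design allows.

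Neither was the most abundant cyclase in these oocytes. The table holds 10 adenylyl cyclase genes, of which 8 were tested, and Adcy5 stood highest at 9.39 ± 0.667 RPKM (SD, n = 4), above Adcy9 in 4 of 4 libraries. Adcy9 averaged 3.53 ± 0.968 RPKM and Adcy3 0.829 ± 0.488 RPKM, between 14.0% and 24.1% of the summed level of the family together. Adcy8, at 3.97 ± 0.863 RPKM, and Adcy1, at 2.83 ± 0.455 RPKM, overlapped Adcy9. Counted per coding kilobase in place of exonic kilobase, Adcy5 still led and Adcy3 was still the 7th, but Adcy9, at 4.52, came 4th in place of 3rd, behind Adcy1 at 10.6 and Adcy8 at 8.64.

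**Figure D2:**
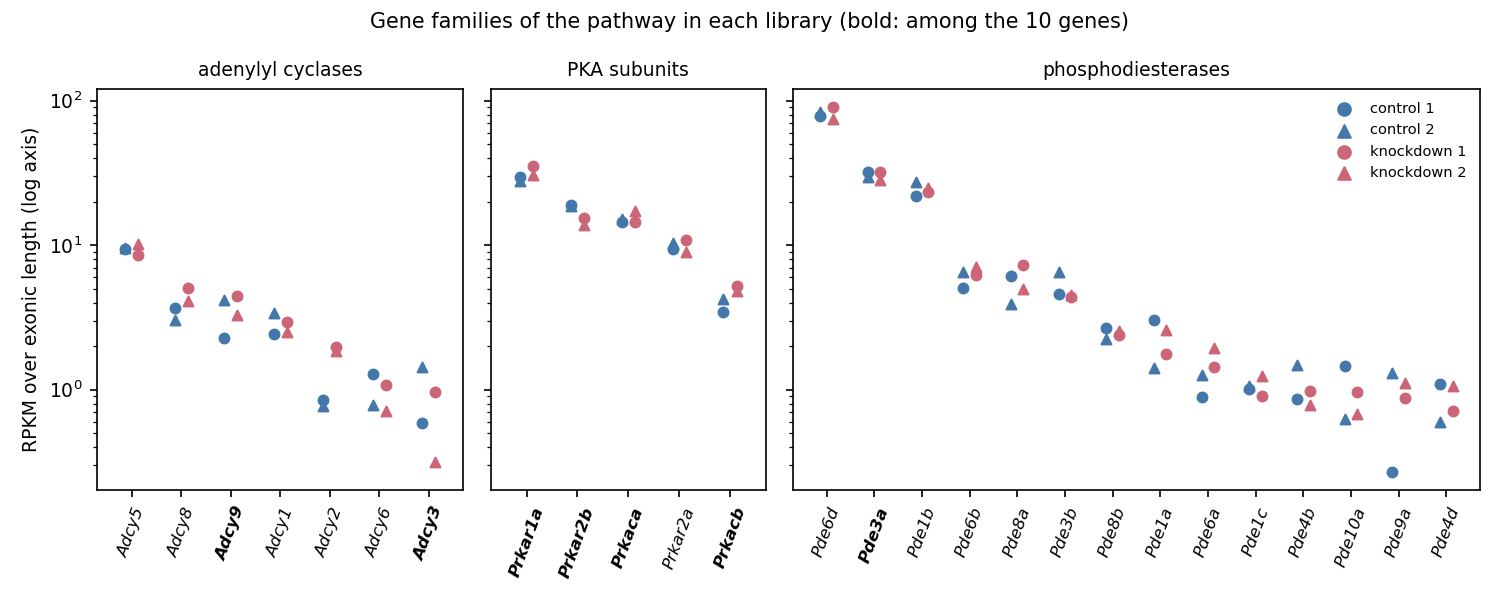
Each point is the level of a gene in a library, in RPKM over exonic length on a log axis, for adenylyl cyclases, PKA subunits and phosphodiesterases with a mean of at least 0.5 RPKM; blue marks controls and red knockdowns, and bold names are among the 10 genes. Adcy5 lies above Adcy9 and Adcy3 in every library, Prkar1a leads the PKA subunits, and Pde3a is second to Pde6d.

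Pde3a encodes the phosphodiesterase that degrades oocyte cAMP when meiosis resumes. It lies on the plus strand of chromosome 6, from 141249269 to 141507448. It was the most counted of the 10 genes, with 18447 and 15371 counts in control oocytes and 17262 and 12870 in knockdown oocytes. Its CPM values were 407.8 and 375.5 in control oocytes and 405.4 and 359.4 in knockdown oocytes. The groups overlapped, and the log2 fold change of -0.04 (SE 0.09) had the narrowest 95% interval of the 10 genes, -0.22 to 0.15, and edgeR gave an adjusted p of 0.972. Per length Pde3a stood at 30.4 ± 1.85 RPKM (SD, n = 4), behind Pde6d, which encodes a carrier of lipid-modified proteins rather than an enzyme, and ahead of the calcium-activated Pde1b at 24.3 ± 2.35 RPKM. Its relative Pde3b averaged 4.99 ± 1.002 RPKM. The level of Pde3a per length was 11.2 and 5.28 times that of Adcy3 and Adcy9 together in control oocytes and 5.91 and 7.81 times in knockdown oocytes. Gm28523, on the other strand and with 0 to 109 counts in a library, overlaps 5.82% of the Pde3a exonic bases.

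None of the 4 PKA genes passed the test across all genes. PKA is made of regulatory subunits that bind cAMP (Prkar1a for type I, Prkar2b for type II) and catalytic subunits that phosphorylate targets (Prkaca and Prkacb). Prkar2b, on the minus strand of chromosome 12 from 31958476 to 32061296, had 3114 and 2802 counts in control oocytes and 2388 and 1791 in knockdown oocytes. Its CPM values were 68.8 and 68.4 in control oocytes and 56.1 and 50.02 in knockdown oocytes, so both knockdown libraries were below both controls. The estimated log2 change was -0.37 (SE 0.16, 95% interval -0.71 to -0.03), with an unadjusted p of 0.0360 and an adjusted p of 0.835 by edgeR. With DESeq2 the unadjusted p was 0.00262 and the adjusted p 0.0918. Over all alternatives the adjusted p ran from 0.0918 to 0.994, and with any single library left out the unadjusted p ran from 0.0570 to 0.167.

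Prkar1a, on the plus strand of chromosome 11 from 109649405 to 109669656, had CPM values of 128.8 and 119.3 in control oocytes and 152.6 and 131.4 in knockdown oocytes. Both knockdown values were above both controls, by a small margin for knockdown replicate 2. The estimated log2 change was 0.20 (SE 0.12, 95% interval -0.06 to 0.45), and edgeR gave an adjusted p of 0.843. Without knockdown replicate 1 the estimate was 0.081. Prkacb, on the minus strand of chromosome 3 from 146729574 to 146812990, had CPM values of 30.3 and 37.4 in control oocytes and 45.6 and 42.0 in knockdown oocytes. Again the groups did not overlap, and the estimated log2 change was 0.38 (SE 0.20, 95% interval -0.05 to 0.82), and edgeR gave an adjusted p of 0.835. Without control replicate 1 the estimate was 0.24. Prkaca, on the plus strand of chromosome 8 from 83972993 to 83996443, had CPM values of 36.1 and 38.0 in control oocytes and 36.1 and 42.6 in knockdown oocytes. The groups overlapped, and the estimated log2 change was 0.08 (SE 0.20, 95% interval -0.35 to 0.51).

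Ratios within a library do not depend on the scaling between libraries. The ratio of Prkar1a to Prkar2b, per length, was 1.58 and 1.47 in control oocytes and 2.30 and 2.22 in knockdown oocytes. Its mean was 1.53 ± 0.0762 in control oocytes and 2.26 ± 0.0560 in knockdown oocytes (SD, n = 2 each), a gap larger than the spread between replicates. The exact permutation test gave 0.333, the smallest p it allows and above any usual threshold. The same p came for 2 others of the 6 ratios computed, Prkaca to Prkacb and Adcy9 to Adcy3. It is the share of arrangements that part the groups this far, so such a p is common without any change. The ratio of Prkar1a to Prkar2b joins a gene whose knockdown values were both higher to a gene whose values were both lower. It therefore adds no independent evidence. As a share of both subunits, Prkar1a made up 61.3% and 59.6% in control oocytes and 69.7% and 68.9% in knockdown oocytes. The ratio of Prkaca to Prkacb was 4.20 and 3.59 in control oocytes and 2.79 and 3.58 in knockdown oocytes, where control replicate 2 and knockdown replicate 2 all but coincided. The ratio of Prkaca plus Prkacb to Prkar1a plus Prkar2b, which leaves out the regulatory gene Prkar2a, overlapped between groups, at 0.369 and 0.422 in control oocytes and 0.389 and 0.497 in knockdown oocytes. These ratios compare RNA, and protein was not measured.

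**Figure D3:**
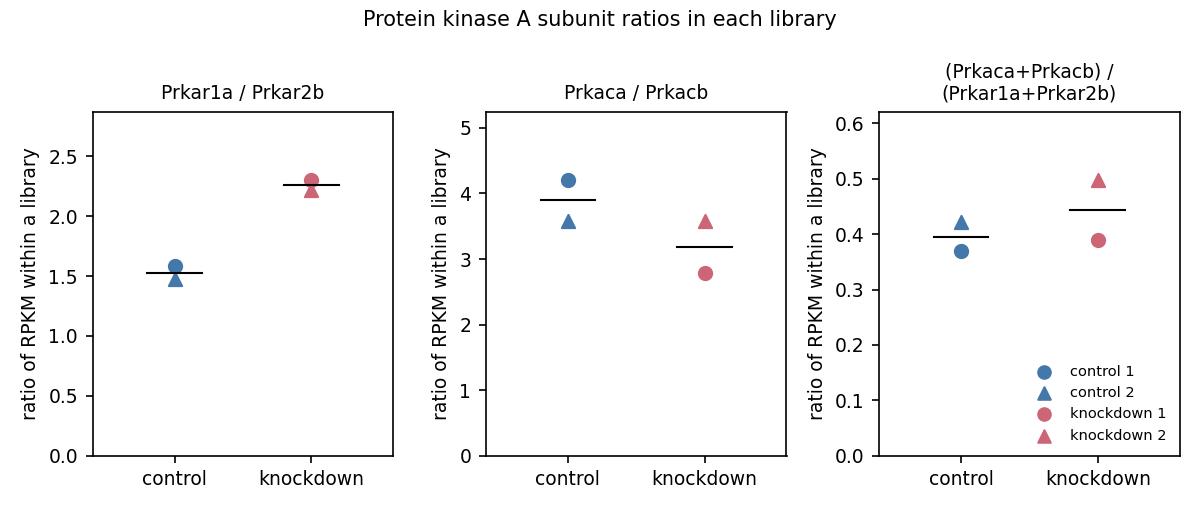
Each point is a ratio of RPKM values within a library, and black lines are group means of 2 libraries; each axis starts at 0. The ratio of Prkar1a to Prkar2b is near 1.5 in both controls and above 2.2 in both knockdowns, while the ratio of the 2 catalytic to the 2 regulatory genes, Prkar2a left out, overlaps.

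Of the PKA subunits outside the 10 genes, Prkar2a, the other type II regulatory gene, was well counted. It had 9.90 ± 0.890 RPKM (SD, n = 4) and a log2 change of 0.02 (SE 0.16). Per coding kilobase its mean was 52.3, against 48.8 for Prkar2b and 36.3 for Prkaca, so its place among the subunits depends on the length used. Prkar1b had 16 and 0 counts in control oocytes and 36 and 63 in knockdown oocytes, and an adjusted p of 0.841 by edgeR. Pkig, an inhibitor of the catalytic subunits, averaged 4.18 ± 1.10 RPKM. The list of other PKA subunits and inhibitors had 5 tested genes, none called and none at an unadjusted p under 0.05 by edgeR. Its median estimated log2 change was 0.46, with 4 above 0 and 1 below.

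By mean level per length over the 4 libraries, the order of the 10 genes was Gpr3 (47.5 RPKM), Prkar1a (30.8), Pde3a (30.4), Prkar2b (16.7), Prkaca (15.4), Prkacb (4.42), Adcy9 (3.53), Gnas (1.78), Adcy3 (0.829) and Gpr12 (0.374). Neighbours whose libraries overlapped were Prkar1a and Pde3a, Prkar2b and Prkaca, Prkacb and Adcy9, and Adcy3 and Gpr12. Within a library, Prkacb was above Adcy9 in 4 of 4 libraries, while the first gene of the other pairs was above the second in 2 of 4 (Prkar1a), 3 of 4 (Prkar2b) and 3 of 4 (Adcy3). The order also rests on the length used. Prkacb is counted over 8772 exonic bases but has a longest coding sequence of 1194, and per coding kilobase the mean ratio of Prkaca to Prkacb was 1.14 in place of 3.54.

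**Figure D4:**
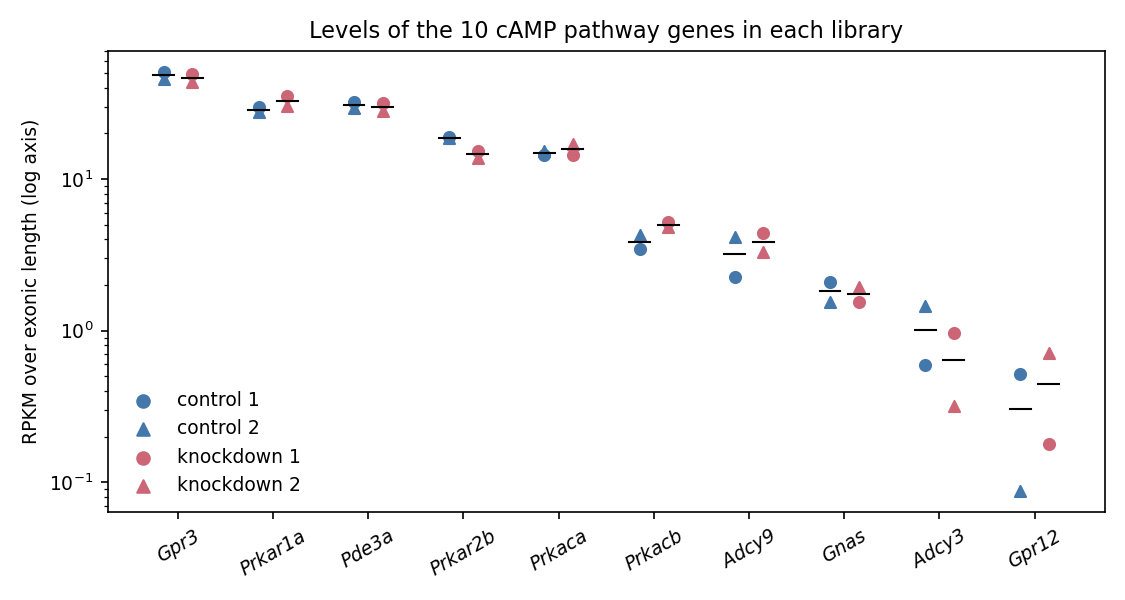
Each point is the level of a gene in a library, in RPKM over exonic length on a log axis, and black lines are group means of 2 libraries. The libraries of Gpr3, Pde3a and Prkaca lie close together, and those of Adcy3 and Gpr12 spread widely.

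The rest of the pathway was read from 9 lists with 135 genes in the table, of which 100 were tested and 18 had no count in any library. No gene was called by edgeR, DESeq2 or limma-voom. Over all genes edgeR called 0.0063%, DESeq2 1.86% of those with an adjusted p, and limma-voom 0. With so few calls over all genes, the lack of calls among these 100 does not set them apart. At an unadjusted p under 0.05 edgeR listed 4, or 4%, against 5.51% of all tested genes, with 2 higher (Adcy2 and Gnal) and 2 lower (Gnb2 and Pde7a). Gnal passed the filter on low counts through the knockdown group alone, so its place in this count is no evidence of a change. The median log2 fold change of the 100 genes was 0.00.

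Among receptors and their regulators, 8 of 17 genes were tested, with a median log2 fold change of -0.18. Arrb2, a beta-arrestin that uncouples active receptors, was the most abundant at 14.6 ± 2.63 RPKM (SD, n = 4). Adora2b, an adenosine receptor coupled to the stimulatory G protein, had CPM values of 6.68 and 13.5 in control oocytes and 16.5 and 17.0 in knockdown oocytes, with an adjusted p of 0.835 by edgeR. Among the other heterotrimeric G protein genes 25 of 32 were tested, with a median of -0.06. Rgs2, which shortens G protein signals, stood at 210.7 ± 3.90 RPKM and the gamma subunit gene Gng3 at 165.9 ± 6.23 RPKM. Gnb2, a beta subunit gene, had 730 and 566 counts in control oocytes and 305 and 316 in knockdown oocytes, a log2 change of -0.93 (SE 0.37) with an adjusted p of 0.835 by edgeR. Gnal, the nearest relative of Gnas, was singled out after its values were seen and passed the filter on low counts through the knockdown group alone, so its values are a description. It had no count in control oocytes and 43 and 38 in knockdown oocytes, and edgeR gave an adjusted p of 0.835. With 3 counts per library taken as the limit of the controls, the mean CPM of the knockdown libraries was at least 14.8-fold higher. That fold leaves out the spread between libraries at such low counts.

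Other adenylyl cyclases had 6 tested genes of 8 and a median of -0.05. Adcy2 had 162 and 134 counts in control oocytes and 355 and 280 in knockdown oocytes, a log2 change of 1.23 (SE 0.52) with an adjusted p of 0.835 by edgeR. Adcy5 had a log2 change of -0.03 (SE 0.15) and Adcy8 of 0.46 (SE 0.23). Other phosphodiesterases had 16 tested genes of 23, 8 above 0 and 8 below. Pde7a, a cAMP-specific enzyme, had 78 and 135 counts in control oocytes and 8 and 19 in knockdown oocytes, with an adjusted p of 0.835 by edgeR. Pde6d and Pde1b had log2 fold changes of 0.02 and -0.02.

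A-kinase anchoring proteins, which tether PKA at sites in the cell, had 12 tested genes of 16 and a median of 0.07. The intervals of 10 lay within a 2-fold change, against 46.7% of all tested genes, a share that covers genes of all levels. Akap1, an anchor of the outer mitochondrial membrane, stood at 158.7 ± 3.46 RPKM (SD, n = 4), above each of the 4 PKA genes described here. Akap12 stood at 71.7 ± 2.63 RPKM. Their log2 fold changes were -0.02 and 0.09. Akap10 had the smallest p of the list, at 123.2 ± 4.33 CPM in control oocytes and 109.5 ± 4.21 CPM in knockdown oocytes (SD, n = 2 each), and edgeR gave an adjusted p of 0.868. Other cAMP effectors and the CREB branch, which carries cAMP signals to transcription, had 14 tested genes of 15 and a median of 0.19. Popdc2, a cAMP-binding membrane protein, averaged 9.78 ± 2.67 RPKM and Atf1, a CREB relative, 5.64 ± 1.77 RPKM. Creb1 had 246 and 106 counts in control oocytes and 448 and 229 in knockdown oocytes, with an adjusted p of 0.835 by edgeR.

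The list for cyclic GMP input and gap junctions had 9 tested genes of 13 and a median of 0.01. Gja4 encodes connexin 37, the gap junction protein of the oocyte, and was the most abundant gene of the list at 348.4 ± 11.9 RPKM (SD, n = 4). Its estimated log2 change was 0.01 (SE 0.07). On the follicle cell side, Nppc, the ligand that drives cyclic GMP production, had no count, and its receptor gene Npr2 had 73 and 0 counts in control oocytes and 18 and 0 in knockdown oocytes. Impdh2, an enzyme of guanine nucleotide synthesis, averaged 9.50 ± 2.96 RPKM. Prkg1, a cyclic GMP-dependent kinase, stood at 39.5 ± 0.842 CPM in control oocytes and 31.9 ± 0.559 CPM in knockdown oocytes (SD, n = 2 each), and edgeR gave an adjusted p of 0.861.

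Downstream of PKA, Wee2 and Cdc25b were well counted and showed narrow spread. Wee2 encodes the kinase that PKA activates to hold CDK1 inactive, and had CPM values of 580 and 581 in control oocytes and 580 and 550 in knockdown oocytes, a log2 change of -0.04 (SE 0.07). Cdc25b encodes the phosphatase that activates CDK1 when meiosis resumes, and had CPM values of 124.0 and 137.0 in control oocytes and 136.0 and 127.6 in knockdown oocytes, a log2 change of 0.02 (SE 0.11). All 5 genes of the list of targets had intervals within a 1.5-fold change in either direction. Within a 2-fold change lay these 5 and 46.7% of all tested genes. Intervals narrow as counts rise, and the 46.7% covers genes of all levels, so this does not set the 5 apart as steadier.

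**Figure D5:**
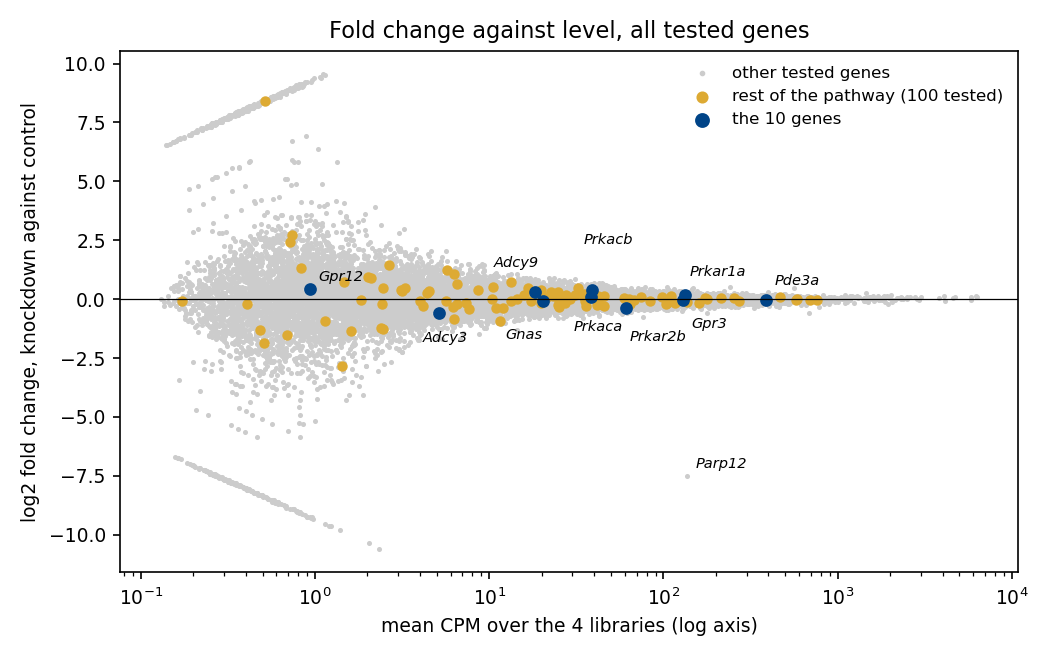
Log2 fold change (knockdown against control) is plotted against mean CPM on a log axis for 15868 tested genes, with the 10 genes in blue and 100 other tested pathway genes in yellow. The 10 genes lie within the cloud of all genes at their level, and Parp12 lies far below it.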

How the data were processed

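Sample titles gave each library its group and number. The deposited table holds raw counts per gene with exon coordinates and exonic length, per the file headers. The build mm10 and the tools featureCounts 2.0.0, STAR 2.7.5b, DESeq2 1.28.1 and Trim Galore 0.6.4 come from the submitters' processing notes, which give no roles. The sources used here do not give strand or multi-mapping settings. Per the labels' protocols, messenger RNA was selected with poly(A) beads.

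The main test was edgeR 4.0.16 in R 4.3.3: filterByExpr (minimum count 10, total 15), TMM, glmQLFit (robust) and a two-sided glmQLFTest on group alone, with p-values adjusted by Benjamini-Hochberg across every tested gene and a threshold of 0.05. Intervals used the SE from the F statistic. CPM and RPKM used library totals and the deposited length. Alternatives included DESeq2 1.42.0 and limma-voom (limma 3.58.1), and the test was tested on simulated data. GENCODE vM21 placed all 10 genes at the same span as the table.

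The members and lists were chosen with earlier results of these data known. Named were the 10 genes, Parp12 and, in each pathway list, any called gene, the smallest p and the 2 highest levels. Markers of cell types, Cd164l2, Cenpo, Nespas, Gm20721, Gm28523, Gpr6, Pde3b, Adcy1, Nppc and Npr2 were named after their values were seen. A result that this rule would name is not reported here. Replicates are not said to come from separate animals, so the p-values reflect the spread of these libraries alone, which may be technical. Limits for a count of 0 cover counting error only.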

Additional observations from a re-analysis of the deposited data

How the results depend on the processing

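None of the 10 genes and none of the other pathway genes was called under any of the 12 alternatives, with a lowest adjusted p of 0.0918 among the 10 (Prkar2b, DESeq2). Over all genes, edgeR called 8 under the stricter filter of 1 CPM, DESeq2 called 305, limma-voom called 0, and leaving out single libraries gave 1 to 2 (2 without knockdown replicate 1). With limma-voom the log2 fold change of Parp12 was -7.73 with an adjusted p of 0.280, so that call was lost. The sources used here name no pairing of the libraries. Over 8432 genes of at least 10 CPM the replicate differences of the groups correlated at 0.0149. This shows no shared replicate effect on these levels, but cannot show whether libraries of equal number shared a preparation. The edgeR fit with the replicate block called 1 gene, 0 of the 10, and gave Prkar2b -0.37 with an adjusted p of 0.942.

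The sign of the log2 fold change turned for 7 of the 10 genes when a single library was left out. The other 3 have groups that do not overlap, so their sign could hardly turn: Prkacb ran from 0.24 to 0.52, Prkar1a from 0.081 to 0.29 and Prkar2b from -0.46 to -0.29. Over the 4 such fits Gpr3 ran from -0.15 to 0.041 (0.041 without control replicate 1, 0.03 without knockdown replicate 2). Gpr12 ran from -0.82 to 2.26 (-0.31 without control replicate 2, -0.82 without knockdown replicate 2). Gnas ran from -0.29 to 0.17 (0.17 without control replicate 1, 0.08 without knockdown replicate 1). Adcy3 ran from -1.65 to 0.16 (0.16 without control replicate 2). Adcy9 ran from -0.074 (without control replicate 1) to 0.77. Pde3a ran from -0.13 to 0.046 (0.04 without control replicate 1, 0.046 without knockdown replicate 2). Prkaca ran from -0.038 (without knockdown replicate 2) to 0.20. In these fits the lone library of a group is taken to have the spread of the pair in the other group.

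Per coding kilobase in place of exonic kilobase, mean levels were 131.3 for Gpr3, 116.4 for Prkar1a, 113.1 for Pde3a, 48.8 for Prkar2b, 36.3 for Prkaca, 32.5 for Prkacb, 5.95 for Gnas, 4.52 for Adcy9, 1.51 for Adcy3 and 0.938 for Gpr12, so Gnas moved ahead of Adcy9. The mean ratio over the 4 libraries was 1.14 for Prkaca to Prkacb, 2.45 for Prkar1a to Prkar2b and 20.4 for Pde3a to Adcy3 plus Adcy9. Gpr12 did not pass the filter of 1 CPM and has no value there. The widest intervals belonged to the genes with the fewest counts, Gpr12 (9 to 64) and Adcy3 (71 to 369).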
